A study of Homo sapiens with 5 samples.

Results

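The genes described here are 10 transcripts that report on fibroblast growth factor (FGF) and ERK signaling: the sprouty genes SPRY1, SPRY2 and SPRY4, the sprouty-related SPRED1, the phosphatase DUSP6, the receptor-level inhibitor IL17RD, the ETS factors ETV1, ETV4 and ETV5, and the FGF-binding protein FGFBP3. They were taken by symbol from the gene tables of 8 single-cell libraries. All 10 were present once in each table, among 36601 genes listed for D0 to D10 and 33538 listed for D22 to D26.

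The libraries came from the human embryonic stem cell line WA09, an established line, differentiated toward gonadotropin-releasing hormone (GnRH) neurons and sequenced on 10× Genomics droplets. D0 was the undifferentiated culture in mTeSR1, and all later cultures were grown in N2B27 medium, with no FGF listed as added to N2B27 before day 11. Whether mTeSR1 itself supplied FGF at D0 is not given in the sources used here. D5_dSMADi and D10_dSMADi had 5 and 10 days of dual SMAD inhibition (dSMADi, with dorsomorphin and SB431542), and D5_XAV939 and D10_XAV939 had the same inhibitors together with XAV939 at 10 μM from day 0. D22, D24 and D26 had the same dual SMAD inhibition for the first 10 days, without XAV939. They then had FGF8 from day 11 to day 20 and the Notch pathway inhibitor DAPT from day 21. Every group carried the wild-type genotype per the labels. The 5 groups of D0 to D10 were marked with oligonucleotide tags and run together, and each is called a library here. Cultures of the later course were frozen on day 17 and thawed. Each condition was 1 library, so nothing below has a replicate check and no p-value could be computed.

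FGF receptors signal through RAS, RAF and MEK to the kinase ERK, which switches on its own brakes along with its effectors. SPRY and SPRED proteins act on the cascade between receptor and RAF, DUSP6 dephosphorylates ERK, IL17RD (also called SEF) acts near the receptor and at ERK's entry to the nucleus, and ETV1, ETV4 and ETV5 carry the response to target genes. The levels of these transcripts are therefore widely read as a sign of recent FGF-ERK activity, which is known for patterning the anterior forebrain and the olfactory region where GnRH neurons arise. XAV939 inhibits tankyrase and so stabilizes AXIN, which lowers signaling through beta-catenin.

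Levels were the unique molecular identifiers (UMIs) of a gene summed over the cells of a library and scaled to that library's UMIs of all genes (CPM), with an exact 95% Poisson interval. A ratio of levels carries an interval from the exact binomial limits on the UMIs of both libraries. Both intervals cover counting error only, and the spread between cultures is unknown. In such sums, fewer cells that express a gene and less RNA per cell cannot be told apart. The cells kept numbered 1008 to 2815 in the 5 libraries of D0 to D10 and 9107 to 11056 in those of D22 to D26, with 58073098 to 130440502 UMIs per library. POU5F1, the pluripotency factor, stood at 1244 CPM at D0 and at 26.6 CPM or less in every later library. STMN2, a neuronal microtubule protein, was at 1294 CPM in D22, 9045 CPM in D24 and 8093 CPM in D26, and SOX2, a progenitor factor, at 224, 17.2 and 10.6 CPM, so that D22, labeled as neurons, still held progenitors. D0 to D10 and D22 to D26 were dissociated and counted differently, so no ratio was taken between these sets. The 5 libraries of D0 to D10 shared no barcode with each other, and 37 barcodes at most were shared by any other pair.

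The upstream sequences of 4 genes on which the results turn are shown first, since SPRY1, DUSP6 and FGFBP3 were past 2-fold together at D5, and SPRY2 and FGFBP3 at D10. Each is the 250 bases before the gene's first base, read 5′ to 3′ on the gene's strand from the RefSeq table for GRCh38.p14, and capitals mark GGAA or its complement TTCC, the core letters that ETS factors such as ETV1, ETV4 and ETV5 bind. They lie at chr4:123396545-123396794 (plus strand), chr13:80341127-80341376, chr12:89352502-89352751 and chr10:91909487-91909736 (minus strand for the last 3).
SPRY1: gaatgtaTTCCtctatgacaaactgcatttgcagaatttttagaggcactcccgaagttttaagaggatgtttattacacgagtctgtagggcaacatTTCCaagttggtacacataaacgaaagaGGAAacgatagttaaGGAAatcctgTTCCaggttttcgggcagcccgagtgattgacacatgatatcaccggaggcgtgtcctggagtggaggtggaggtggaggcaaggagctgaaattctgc
SPRY2: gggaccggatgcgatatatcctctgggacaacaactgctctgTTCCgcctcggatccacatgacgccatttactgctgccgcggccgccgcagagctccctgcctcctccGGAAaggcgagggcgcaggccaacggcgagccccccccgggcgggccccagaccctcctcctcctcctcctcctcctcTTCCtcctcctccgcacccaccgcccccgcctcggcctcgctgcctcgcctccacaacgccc
DUSP6: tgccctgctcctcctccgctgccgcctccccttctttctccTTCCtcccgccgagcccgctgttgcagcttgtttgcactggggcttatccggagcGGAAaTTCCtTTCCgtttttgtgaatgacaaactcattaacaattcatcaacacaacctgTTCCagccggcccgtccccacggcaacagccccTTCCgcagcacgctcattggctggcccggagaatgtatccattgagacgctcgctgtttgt
FGFBP3: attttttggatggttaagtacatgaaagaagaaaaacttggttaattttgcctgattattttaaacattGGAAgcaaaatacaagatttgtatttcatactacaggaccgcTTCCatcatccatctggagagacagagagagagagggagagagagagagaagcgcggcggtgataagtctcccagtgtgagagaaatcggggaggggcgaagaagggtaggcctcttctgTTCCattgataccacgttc
On both strands together, the DUSP6 window held 6 such matches, the SPRY1 window 5, and those of SPRY2 and FGFBP3 3 each. Of all 35116 windows in the table, 92.7% held at least 1 match, with a median of 3. The letters CTTTGAT or ATCAAAG, a core of TCF and LEF sites, were found in none of these 4 windows and in 2.26% of all windows. Of the 10 genes, 8 were in the table, and among their other windows 1 of IL17RD held a match to these letters. A match of letters is not a bound site.

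The first question was how the feedback genes stood with XAV939 after 5 days. All 10 were higher in D5_XAV939 than in D5_dSMADi, each with an interval above 0 on the log2 scale, and 5 of them were higher by at least 2-fold. The median log2 ratio of the 10 was 1.01. Among 13477 genes with at least 1 CPM in one of the libraries, 58.1% were higher with XAV939, the median log2 ratio was 0.05, the 90th percentile was 0.44, 1.39% were higher and 1.28% lower by at least 2-fold. With the stricter floor of 10 CPM, which 8 of the genes passed in both libraries, 4 of these 8 were higher by at least 2-fold against 0.611% of 8181 genes, and none was lower by 2-fold, which 0.575% were.

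After 10 days 8 of the 10 were on the higher side with XAV939 and 2, DUSP6 and SPRED1, were on the lower side. The median log2 ratio was 0.65, against 0.01 over 14088 genes with at least 1 CPM, of which 51.0% were higher. SPRY2, SPRY4 and FGFBP3 were higher by at least 2-fold, which 2.53% of these genes were, and DUSP6 was lower by at least 2-fold, which 3.58% were. With the floor of 10 CPM, SPRY4 was not counted, 2 of 9 genes were higher and 1 was lower by 2-fold, against 1.21% and 1.41% of 8713 genes. ETV4 passed this floor only through D10_XAV939 and DUSP6 only through D10_dSMADi.

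**Figure D1:**
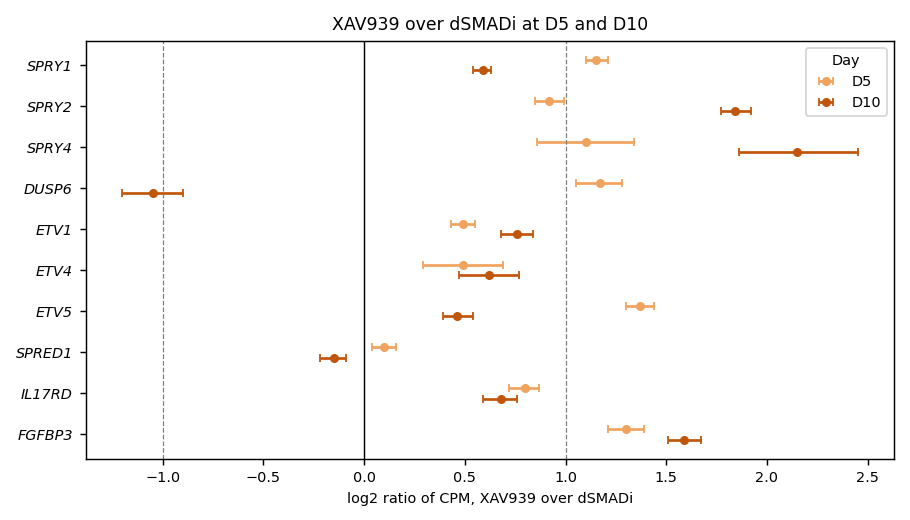
The log2 ratio of CPM, XAV939 over dSMADi, is plotted for the 10 genes at D5 (light orange) and D10 (dark orange), with 95% intervals for counting error and dashed lines at 2-fold. All D5 points lie above 0, and at D10 only DUSP6 at -1.05 and SPRED1 at -0.15 lie below 0.

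Dividing cells also differed between the arms. MKI67, a marker of dividing cells, stood at 135 CPM in D5_dSMADi and 210.4 CPM in D5_XAV939, and at 197 and 248 CPM at D10, and the ratios were also taken within subsets of cells. Among cells with no UMI of MKI67 or TOP2A, which numbered 534 in D5_dSMADi and 503 in D5_XAV939, the log2 ratios were 1.14 for SPRY1, 1.60 for DUSP6, 1.55 for ETV5 and 1.90 for FGFBP3. At D10, where 330 and 288 such cells remained, they were 1.81 for SPRY2, 2.77 for SPRY4, 2.01 for FGFBP3 and -1.28 for DUSP6. In cluster 4 of the D0 to D10 cells, a dividing cluster led by UBE2C, DEPDC1 and TOP2A with 1015 cells of D5_XAV939 and 254 of D5_dSMADi, the 10 genes were again all on the higher side with XAV939, from 0.17 (0.04 to 0.31) for SPRED1 to 1.37 (0.80 to 2.00) for SPRY4. Of 13449 genes with at least 1 CPM in either library's cells of cluster 4, 60.4% were higher with XAV939. The cluster was not matched for division, with MKI67 at 546 CPM in its D5_dSMADi cells and 409 CPM in its D5_XAV939 cells, and another 519 D5_dSMADi cells with MKI67 at 177 CPM lay in cluster 7, which held 1 cell of D5_XAV939. Within cluster 4 the ratios of FGFBP3, 0.87, and SPRY2, 0.72, were smaller than in the whole libraries, and those of IL17RD, 1.15, and ETV4, 1.03, were larger.

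SPRY1 (ENSG00000164056, chromosome 4, 123396795 to 123403760, plus strand, GENCODE 44 on GRCh38) codes for an inhibitor of receptor tyrosine kinase signaling. Its level was 39.1 CPM at D0, 48.4 in D5_dSMADi, 107 in D5_XAV939, 97.8 in D10_dSMADi and 147 in D10_XAV939. The log2 ratio with XAV939 was 1.15 (1.10 to 1.21) at D5 and 0.59 (0.54 to 0.63) at D10. D0 was the lowest of the 5 libraries, both XAV939 libraries were the highest, and no neighbors in this order had overlapping intervals.

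SPRY2 (ENSG00000136158, chromosome 13, 80335976 to 80341126, minus strand), a relative with the same conserved cysteine-rich domain, followed another order. It stood at 41.3 CPM at D0, 27.8 in D5_dSMADi, 52.6 in D5_XAV939, 26.5 in D10_dSMADi and 95.1 in D10_XAV939. The log2 ratio was 0.92 (0.85 to 0.99) at D5 and 1.84 (1.77 to 1.92) at D10. Without XAV939 the levels at D5 and D10 had overlapping intervals, so that D10 over D5 was -0.07 (-0.16 to 0.02) with dSMADi alone and 0.85 (0.80 to 0.91) with XAV939.

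SPRY4 (ENSG00000187678, chromosome 5, 142310427 to 142326455, minus strand), another sprouty inhibitor, was at 36.2 CPM at D0, 2.67 in D5_dSMADi, 5.72 in D5_XAV939, 1.61 in D10_dSMADi and 7.15 in D10_XAV939. D5_dSMADi over D0 had a log2 ratio of -3.76 (-3.97 to -3.56). The later 4 libraries were all far under D0, and within each day the XAV939 library was the higher one, by 1.10 (0.86 to 1.34) at D5 and 2.15 (1.86 to 2.45) at D10. The D10 ratio rests on 415 UMIs against 127. SPRY4-AS1 overlaps SPRY4 on the other strand and reached 1.29 CPM at most.

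SPRED1 (ENSG00000166068, chromosome 15, 38252836 to 38357249, plus strand), which recruits the RAS inactivator neurofibromin to the membrane, was the gene closest to no difference. Its levels were 26 CPM at D0, 56.1 in D5_dSMADi, 60.1 in D5_XAV939, 59.8 in D10_dSMADi and 53.8 in D10_XAV939. The log2 ratio with XAV939 was 0.10 (0.04 to 0.16) at D5 and -0.15 (-0.22 to -0.09) at D10. D0 was the lowest library by 1.11 (1.03 to 1.19) against D5_dSMADi, and the other 4 lay within a narrow band.

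DUSP6 (ENSG00000139318, chromosome 12, 89347235 to 89352501, minus strand) codes for the cytoplasmic phosphatase of ERK. It stood at 135 CPM at D0, 11.6 in D5_dSMADi, 26 in D5_XAV939, 18.2 in D10_dSMADi and 8.82 in D10_XAV939. It was higher with XAV939 at D5, with a log2 ratio of 1.17 (1.05 to 1.28), and lower at D10, with -1.05 (-1.20 to -0.90). With dSMADi alone D10 was above D5 by 0.65 (0.53 to 0.77), and with XAV939 D10 was below D5, at -1.56 (-1.70 to -1.42). The D10 ratio passed 2-fold only narrowly, and was -0.98 with every deposited barcode and -0.96 with stricter limits on cells. AC024909.2 overlaps DUSP6 on the other strand and reached 1.63 CPM at most.

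IL17RD (ENSG00000144730, chromosome 3, 57089982 to 57170306, minus strand), which restrains signaling by FGF receptors, was at 40.9 CPM at D0, 29.3 in D5_dSMADi, 50.9 in D5_XAV939, 25.7 in D10_dSMADi and 41.1 in D10_XAV939. The log2 ratio with XAV939 was 0.80 (0.72 to 0.87) at D5 and 0.68 (0.59 to 0.76) at D10. Both dSMADi libraries were below D0, D10_XAV939 and D0 had overlapping intervals, and the whole range over the 5 libraries was 1.98-fold.

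ETV1 (ENSG00000006468, chromosome 7, 13891229 to 13991425, minus strand) belongs with ETV4 and ETV5 to the PEA3 group of ETS transcription factors. ETV1 was at 62.7 CPM at D0, 46.3 in D5_dSMADi, 64.9 in D5_XAV939, 32.3 in D10_dSMADi and 54.7 in D10_XAV939. The log2 ratio with XAV939 was 0.49 (0.43 to 0.55) at D5 and 0.76 (0.68 to 0.84) at D10. D5_XAV939 and D0 had overlapping intervals, and D10_dSMADi was the lowest library.

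ETV4 (ENSG00000175832, chromosome 17, 43527844 to 43579620, minus strand) was at 64.7 CPM at D0, 4.34 in D5_dSMADi, 6.1 in D5_XAV939, 8.32 in D10_dSMADi and 12.8 in D10_XAV939. It was lower in D5_dSMADi than at D0 by a log2 ratio of -3.90 (-4.06 to -3.74), the lowest of the 10 genes in that step. The XAV939 ratios were 0.49 (0.29 to 0.69) and 0.62 (0.47 to 0.77). DHX8 overlaps ETV4 on the other strand at 25.4 to 35.3 CPM over the 8 libraries. Whether strand was used in the counting is not given in the sources used here. ETV4 was at only 0.399 CPM at D24 and 0.141 CPM at D26, so DHX8 can have added no more than that in these libraries. Its part in the other libraries was not tested.

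ETV5 (ENSG00000244405, chromosome 3, 186046314 to 186110318, minus strand) was at 30.3 CPM at D0, 25.5 in D5_dSMADi, 65.9 in D5_XAV939, 32.9 in D10_dSMADi and 45.5 in D10_XAV939. Its log2 ratio at D5, 1.37 (1.30 to 1.44), was the highest of the 10 genes, and that at D10 was 0.46 (0.39 to 0.54). Unlike ETV4, ETV5 in D5_dSMADi lay close to D0, with a log2 ratio of -0.25 (-0.34 to -0.16), and in D5_XAV939 it lay above D0, with 1.12 (1.05 to 1.19). DGKG overlaps ETV5 on the same strand and reached 0.606 CPM at most.

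FGFBP3 (ENSG00000174721, chromosome 10, 91906584 to 91909486, minus strand) codes for a secreted protein that binds FGFs and releases them from the matrix. It was at 166 CPM at D0, 17.7 in D5_dSMADi, 43.7 in D5_XAV939, 24.7 in D10_dSMADi and 74.1 in D10_XAV939. The log2 ratio with XAV939 was 1.30 (1.21 to 1.39) at D5 and 1.59 (1.51 to 1.67) at D10. FGFBP3 was the one gene at or above 2-fold at both days with more than 10 CPM in all 4 libraries, and SPRY4 was at or above 2-fold at both days below that level. The other FGF-binding proteins, FGFBP1 and FGFBP2, had 9 UMIs or fewer in every library.

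**Figure D2:**
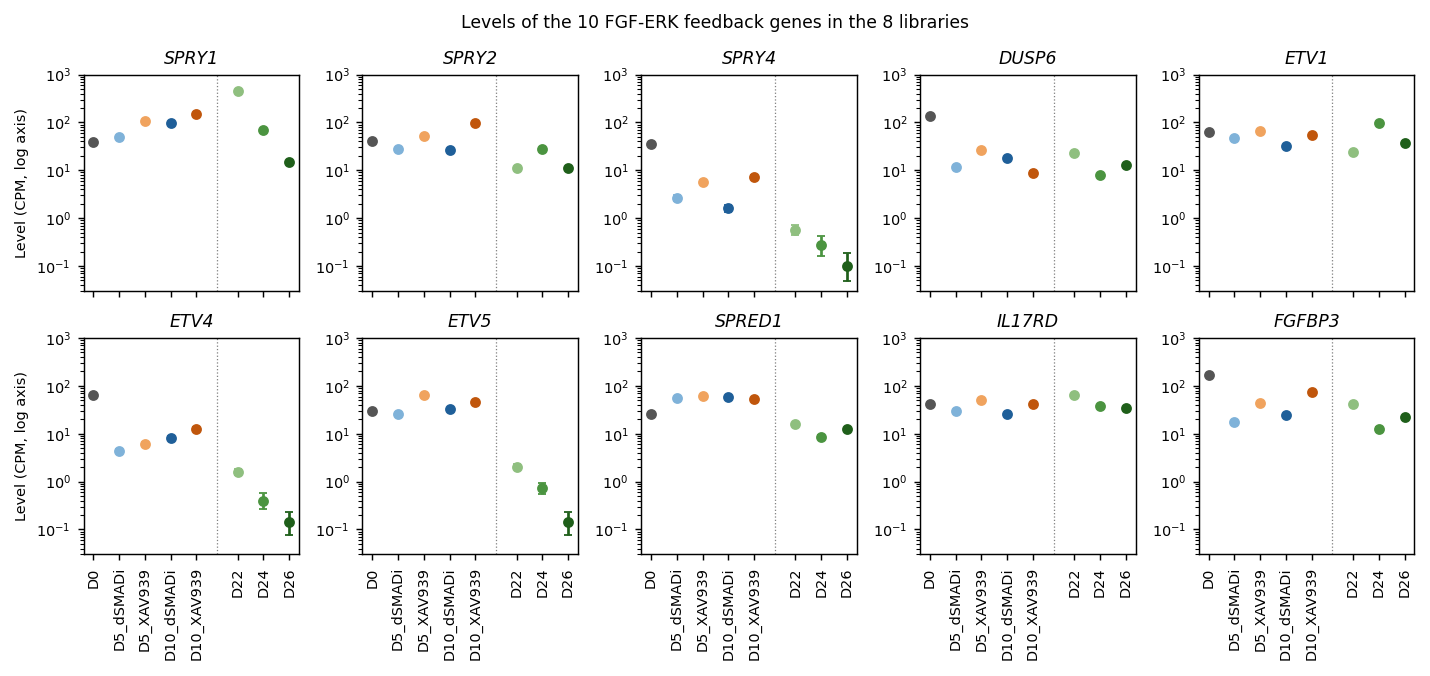
Each panel plots 1 gene, with its level in CPM on a log axis for the 5 libraries of D0 to D10 and, right of the dotted line, for D22, D24 and D26, and bars for the 95% Poisson interval. SPRY4, ETV4, DUSP6 and FGFBP3 have their highest early level at D0, and SPRY1 has its highest of all at D22 with 459 CPM.

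From D0 to D5 the 10 genes split. SPRY4, DUSP6, ETV4 and FGFBP3 were lower by at least 2-fold in both D5 libraries, with log2 ratios of -3.23 to -3.90 in D5_dSMADi and -1.93 to -3.41 in D5_XAV939. SPRED1 was higher by at least 2-fold in both, and SPRY1 and ETV5 only in D5_XAV939, at 1.46 (1.40 to 1.52) and 1.12. The share of all genes tested that were lower by 2-fold was 17% in D5_dSMADi and 15.3% in D5_XAV939, and 8.22% and 9.23% were higher. The 10th percentile of the log2 ratios of all genes with at least 1 CPM was -1.95 and -1.91. SPRY4 and ETV4 passed the floor of 10 CPM only through D0. The D0 library is the shared reference of both comparisons, and its culture medium also differed from that of both D5 libraries. From D5 to D10, 1 gene was past 2-fold with dSMADi alone, SPRY1 with 1.02 (0.96 to 1.07), against 6.5% of all genes in either direction. It was under 2-fold in 4 alternatives, at 0.96 with every barcode, 0.99 with stricter limits on cells, 0.77 with TMM scaling and 0.91 with the total without the 50 top genes. With XAV939 2 genes were past 2-fold, DUSP6 and ETV4 with 1.07 (0.90 to 1.23), against 5.48%. DUSP6 passed the floor only through D5_XAV939 and ETV4 only through D10_XAV939. ETV4 was at 0.88 with TMM scaling, 0.92 in cells with no MKI67 or TOP2A UMI and 0.96 with the total without the 50 top genes.

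Other genes of the pathway were compared through lists. Of 13 other ERK response genes, 4 had at least 10 CPM at D5 and 6 at D10, and at D5 none of the 4 reached 2-fold. Their median log2 ratios were -0.03 at D5 and -0.07 at D10. At D10 IER3, an early response gene of ERK, was the only one past 2-fold, at 11.8 CPM in D10_dSMADi and 4.2 in D10_XAV939, a log2 ratio of -1.49 (-1.70 to -1.29), and it passed the floor only through D10_dSMADi. DUSP4, a nuclear phosphatase of ERK, and SPRED2, the closest relative of SPRED1, had log2 ratios of 0.12 and -0.18 at D5, and these 2 genes were chosen after their values were seen. At D5 DUSP6 was at 1.17 and SPRED1 at 0.10, and at D10 DUSP4 was at 0.30 and SPRED2 at 0.02 against -1.05 for DUSP6 and -0.15 for SPRED1.

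Of 10 immediate early genes, which respond to ERK within minutes, 4 had at least 10 CPM at D5 with a median log2 ratio of -0.17. At D10 the median of 5 was 0.13, and FOS was past 2-fold, at 30.7 CPM in D10_dSMADi and 14.8 CPM in D10_XAV939, a log2 ratio of -1.05 (-1.17 to -0.94). FOS had at least 10 CPM in both D10 libraries and was lower with XAV939, as IER3 and DUSP6 were. EGR1 of the same list was lower too, at -0.68 (-0.83 to -0.53), and passed the floor only through D10_dSMADi. MYC at 0.81 (0.70 to 0.93) and IER2 at 0.13 (0.08 to 0.19) were higher, with at least 10 CPM in both libraries. ATF3, a stress-responsive member of the same list named after its values were seen, stood at 37.4 CPM in D10_dSMADi and 71.9 CPM in D10_XAV939, under 2-fold at 0.94 (0.87 to 1.01).

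Of 18 FGF ligands, 2 had at least 10 CPM at D5 and 3 at D10. FGF9 was past 2-fold at D10, at 6.17 CPM in D10_dSMADi and 16.2 in D10_XAV939, a log2 ratio of 1.40 (1.24 to 1.56), and passed the floor only through D10_XAV939. FGF8, the ligand of the anterior forebrain and later the ligand added to these cultures, was at 13.3 and 23.5 CPM at D5 and 16 and 22.3 CPM at D10 in dSMADi and XAV939, log2 ratios of 0.82 (0.71 to 0.93) and 0.48 (0.36 to 0.59), and was named after its values were seen. FGF2 was lower with XAV939 at both days, at 54.6 and 49.1 CPM at D5 and 40.4 and 36.5 CPM at D10, log2 ratios of -0.15 (-0.22 to -0.09) and -0.15 (-0.23 to -0.07). FGF8 and FGF2 thus lay on opposite sides.

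Receptors were on both sides. Of 7 genes for FGF receptors and their co-receptors, 3 had at least 10 CPM at D5, none past 2-fold, and 4 at D10, of which 2 were lower by at least 2-fold. FGFR1 had log2 ratios of 0.16 (0.13 to 0.19) at D5 and -0.43 (-0.47 to -0.39) at D10, and FGFRL1, a receptor without a kinase domain, -0.01 (-0.15 to 0.12) and 0.58 (0.47 to 0.70). FGFR2 was at 45.9 CPM in D5_dSMADi, 27.1 in D5_XAV939, 27.8 in D10_dSMADi and 4.55 in D10_XAV939, a log2 ratio of -2.61 (-2.80 to -2.43) at D10. FGFR3 was at 13.5 CPM in D10_dSMADi and 3.67 in D10_XAV939, a log2 ratio of -1.88 (-2.10 to -1.66). Both FGFR2 and FGFR3 passed the floor only through D10_dSMADi.

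Of 10 feedback targets of beta-catenin none had 10 CPM at D5 and 2 had at D10, LEF1 at 0.01 (-0.15 to 0.17) and ZNRF3 at -0.33 (-0.48 to -0.19). These targets of the pathway that XAV939 acts on were near or under the floor in both arms.

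**Figure D3:**
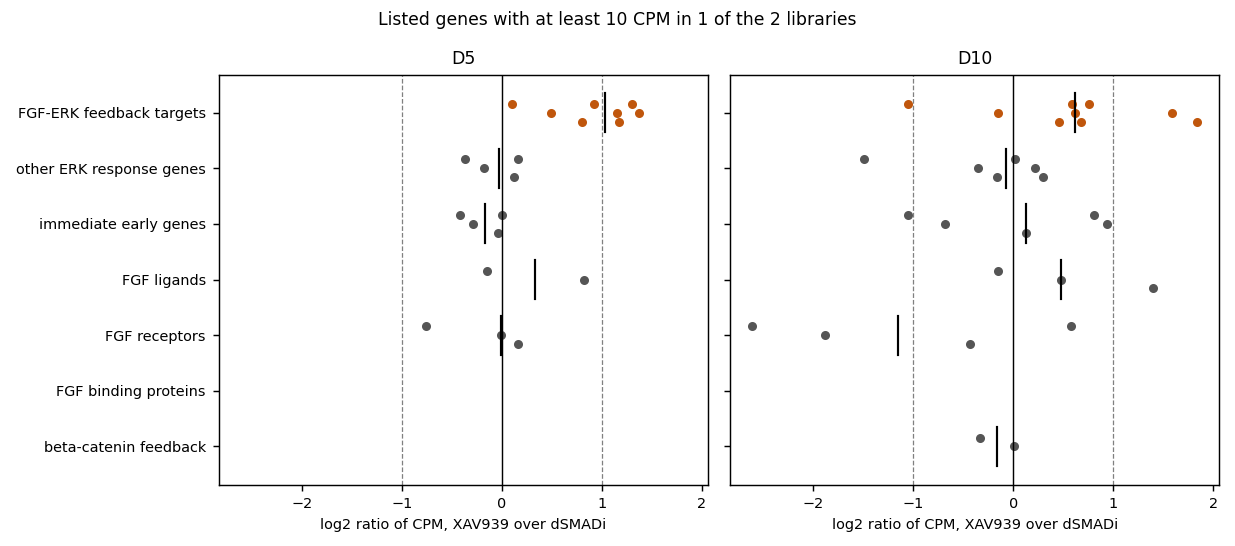
Each point is 1 listed gene with at least 10 CPM in one of the 2 libraries, placed by its log2 ratio of CPM, XAV939 over dSMADi, at D5 (left) and D10 (right), with a bar at each list's median and dashed lines at 2-fold. The feedback genes (orange) have a median of 1.04 at D5 over the 8 genes plotted, while the ERK response and immediate early lists center within 0.17 of 0 at both days.

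Over the later course the question was how the same genes stood as progenitors gave way to neurons. D22, D24 and D26 all fell after the added FGF8 ended on day 20 and under DAPT from day 21. Time since both changes rose with the day, so their effects cannot be told apart from each other or from neuron formation. From D22 to D24, 8 of the 10 were lower and 2 higher, all with intervals off 0, where 55.9% of 13877 genes with at least 1 CPM were lower and 44.1% higher. SPRY4 was below 1 CPM in both libraries, and ETV4 and ETV5 passed 1 CPM only through D22, so this count is not one over genes that passed a floor. Over the 7 genes with at least 10 CPM the median log2 ratio was -0.88, against -0.11 over all such genes. With the floor of 10 CPM, 3 of 7 genes were lower and 2 were higher by at least 2-fold, against 12.9% and 10.2% of 8453 genes. DUSP6, one of the 3, passed the floor only through D22, as did SPRED1, whose own log2 ratio was the median of -0.88. From D24 to D26, 3 of the same 7 were lower by at least 2-fold, SPRY1, SPRY2 and ETV1, against 2.03% of 8391 genes, and none was higher, which 7.37% were. Across D22 to D26, 1 of 7 was lower by at least 2-fold, against 10.9% of 9011 genes. TMM scaling, which rescales each library by its typical gene, made that 4, since DUSP6 at -1.04, IL17RD at -1.11 and FGFBP3 at -1.10 joined SPRY1, where 27.5% of all genes were past 2-fold in either direction. A floor of 1 CPM made it 3, with ETV4 and ETV5, which passed it only through D22, where 34.6% of all genes were past 2-fold.

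SPRY1 covered the widest range. Its level of 459 CPM at D22 stood against 69.1 at D24 and 15.1 at D26, so that D26 was 30.3-fold below D22, with a log2 ratio of -4.92 (-5.00 to -4.85). The 3 intervals were far apart, and the 59888 UMIs at D22 were spread broadly over the 9523 cells, with no more than 33 in any cell. ETV1 ran otherwise, at 24 CPM at D22, 96.6 at D24 and 36.7 at D26, with log2 ratios of 2.01 (1.94 to 2.07) and then -1.40 (-1.45 to -1.34). SPRY2 had the same peak at D24, with 11.1, 28.2 and 11 CPM, and D22 and D26 had overlapping intervals.

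DUSP6, SPRED1 and FGFBP3 had their lowest level at D24. DUSP6 was at 22.5, 7.84 and 12.6 CPM over D22, D24 and D26, SPRED1 at 16, 8.68 and 12.3 CPM, and FGFBP3 at 42.2, 12.8 and 22.8 CPM. IL17RD was at 64.1, 37.5 and 34.5 CPM, and D26 over D22 was at -0.90, or -1.11 and so past 2-fold with TMM scaling. SPRY4, ETV4 and ETV5 were near the limit of detection, with at most 2.06 CPM at D22 and 10 to 14 UMIs in the whole D26 library, which set no more than a direction. ETV5 was at 2.06, 0.727 and 0.141 CPM, lower at D24 than at D22 by a log2 ratio of -1.5 (-1.97 to -1.07).

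Among the lists, CCND1, the cyclin of the G1 phase and a target of ERK, had 106, 11 and 2.27 CPM over the 3 days, a log2 ratio of -5.55 (-5.74 to -5.36) over the whole course. DUSP4 went the other way, from 19.0 CPM at D22 to 27.9 at D24 and 78.1 at D26, a log2 ratio of 2.04 (1.97 to 2.10). The ligand FGF17 was at 12.8 CPM at D22 and 0.527 at D24, and FGF3 at 0.276 CPM at D22 and 16.5 at D26. Of the 13 other ERK response genes 7 had at least 10 CPM in D22 or D26, 3 higher and 1 lower by at least 2-fold, where 18.2% and 10.9% of all 9011 genes were. Of the 18 ligands 5 had at least 10 CPM in D22 or D26, 3 higher and 2 lower by at least 2-fold. All 5 ligands passed the floor only through the library where they were higher. Of the ERK response genes past 2-fold, CCND1 passed it only through D22, and SPRED3 and ERRFI1 only through D26. DUSP4, with at least 10 CPM in both libraries, was higher at D26, where SPRY1 was lower.

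Cell composition moved with the days. MKI67 had 146 CPM at D22 against 4.01 at D24 and 1.13 at D26, and cells with no UMI of MKI67 or TOP2A made up 61.9%, 98.6% and 99.3% of the 3 libraries. Among such cells the log2 ratio of D24 over D22 was -2.75 for SPRY1, -1.41 for DUSP6, -1.10 for FGFBP3 and 1.78 for ETV1, against -2.73, -1.52, -1.72 and 2.01 in all cells. For D26 over D22 FGFBP3 was at -0.20 in such cells and -0.89 in all cells.

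The levels were then read by cluster, made jointly from the 3 libraries without the listed genes. Names were rebuilt from marker genes and may differ from the study's own. Cluster 7 was IRX-like, led by SFRP2, PTX3 and WLS, with 629 D22 cells and smaller groups of 97 from D24 and 15 from D26. It also held dividing cells, with MKI67 at 199.6 CPM at D22, scored 1.67 on the progenitor markers against 2.44 on the IRX markers, and 8.50% of its cells were called doublets. At D22, among clusters with at least 50 cells, 7 of the 10 genes had their highest level there: SPRY2, SPRY4, DUSP6, ETV4, ETV5, SPRED1 and FGFBP3. Of 14507 genes with at least 0.5 CPM at D22, 12.3% were highest there. All 10 passed that floor, SPRY4 only through cluster 7, as it was at 0.257 CPM in the other D22 cells.

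FGFBP3 stood at 231 CPM (221 to 241) in cluster 7 at D22, against 8.47 to 45.0 CPM in the other D22 clusters. SPRED1 was at 64.5 CPM (59.6 to 69.8) there, and at most 19.1 CPM elsewhere. ETV4 at 12.6 CPM (10.5 to 15.0) and ETV5 at 11.4 CPM (9.36 to 13.7) were at most 1.36 and 2.13 CPM in the other D22 clusters. The margin was smaller for SPRY2, at 50.2 CPM against 37.9 CPM in cluster 6, and for DUSP6, at 43.03 CPM against 35.51 CPM in cluster 3. SPRY4, with 44 UMIs, was at 4.47 CPM (3.24 to 5.99) in cluster 7. The cluster held 7.55% of the UMIs of D22 but 58.7% of those of SPRY4, 60.8% of ETV4, 41.6% of ETV5, 41.3% of FGFBP3, 34.2% of SPRY2, 30.4% of SPRED1 and 14.5% of DUSP6. For SPRY1 the share was 3.98% and for IL17RD 3.88%, below the share of all UMIs. In the 97 D24 cells of cluster 7, SPRY2 at 22.95 CPM was below cluster 11 at 52.4 CPM. DUSP6 there was at 24.9 CPM, close to 25.4 CPM in cluster 9. The other IRX-like cluster, cluster 8, had 449 cells of D24. Its FGFBP3 was at 20.6, ETV5 at 1.47 and DUSP6 at 3.53 CPM, against 80.8, 13.97 and 24.9 CPM in cluster 7. Of the 7 genes only SPRY2 was higher in cluster 8, at 25.04 CPM, with overlapping intervals.

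SPRY1 and IL17RD were highest in other D22 clusters. SPRY1 was at 564 CPM in cluster 2, which was NNP-like (neuronal precursors led by SSTR2, NEUROD4 and VSX1), at 509 CPM in the unnamed cluster 3 led by ATP2B4, C1orf61 and PLS3, and at 473 and 441 CPM in the PNP-like dividing clusters 4 and 10, against 242 CPM in cluster 7. IL17RD was at 94.7, 77.6 and 81.2 CPM in clusters 3, 4 and 10 and 43.5 CPM in cluster 2. FGF8 and FGF17, ligands of one subfamily, were at 2.77 to 18.5 and 12.1 to 19.8 CPM in clusters 2, 3, 4 and 10, and at 0.406 and 1.83 CPM in cluster 7. The receptor FGFR1 was at 149 CPM (141 to 157) in cluster 7 and at most 68.8 CPM in the other D22 clusters. The ligand FGF9 was at 7.71 CPM in cluster 7 and 5.52 to 19.1 CPM in the others. In the unnamed cluster 6, with FGF8 at 0.209 and FGF17 at 0.733 CPM, SPRY1 was at 126 CPM, IL17RD at 66.8 and FGFBP3 at 8.90. In the unnamed cluster 11, with FGF8 at 2.73 and FGF17 at 31.6 CPM, SPRY1 was at 431 CPM, IL17RD at 43.7 and FGFBP3 at 14.8. The 100 D22 cells of cluster 1 had no UMI of FGF8 or FGF17, which allows up to 3.91 CPM, with SPRY1 at 83.7 CPM and IL17RD at 69.9, and the 78 cells of cluster 16, of which 97.4% were called doublets, had FGF17 at 7.27 CPM and SPRY1 at 380.2. SPRY1 was thus lower in clusters 1, 6 and 7 than in the other 6, while IL17RD in cluster 6 was above clusters 2 and 11. Cluster 1, which was Glut-like, and cluster 6 also had the highest STMN2 of the D22 clusters, at 9466 and 7904 CPM. Their SOX2 was at 7.41 and 11.9 CPM. ETV1 was highest in these clusters at D22, at 108 CPM in cluster 1 and 114 CPM in cluster 6. It was at 7.78 to 15.7 CPM in clusters 2, 3, 4 and 10, and at 24.6, 52.6 and 56.2 CPM in clusters 11, 16 and 7. In cluster 7 STMN2 was at 267 CPM. Whether SPRY1 went with the ligands or with the neuronal state was not tested.

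Without the cells of cluster 7, an alternative chosen after these levels were seen, D24 over D22 had log2 ratios of -0.25 for SPRY4, -1.13 for ETV4, -1.28 for ETV5, -1.18 for FGFBP3, -0.48 for SPRED1 and 1.84 for SPRY2, against -1.09, -1.97, -1.5, -1.72, -0.88 and 1.35 with them. SPRED1 over D22 to D26 was at 0.03 without cluster 7 and -0.38 with it, and SPRY2 at 0.46 and -0.01. FGFBP3 was at 26.8 CPM at D22 and 22.6 CPM at D26 without cluster 7, against 42.2 and 22.8 CPM with it. SPRY1 was at -2.83 for D24 over D22 and -5.04 for D26 over D22 without cluster 7, close to the values with it. Clusters 1, 6, 7 and 11 had at least 50 cells at both D22 and D24. SPRY1 was at 83.7 and then 67.8 CPM in cluster 1 and at 126 and 117 CPM in cluster 6, with overlapping intervals. In cluster 7 it was at 242 and 193 CPM, and in cluster 11 at 431 and 104 CPM. ETV1 was at 108 and 109 CPM in cluster 1 and 114 and 112 in cluster 6. It was at 56.2 and 38.9 CPM in cluster 7 and 24.6 and 35.8 in cluster 11. The part of composition was not tested.

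Among the neurons, ETV1 and DUSP6 differed between classes at both days. In the Glut-like cluster 1, with 7525 cells of D24, ETV1 was at 109 CPM (106 to 112) and SPRY1 at 67.8, and in the Glut-like cluster 0, with 8533 cells of D26, ETV1 was at 43.1 CPM and SPRY1 at 11.2. These are different clusters on different days, each almost a library of its own. In the GnRH-GABA-like clusters ETV1 was at 15.1 CPM in cluster 9 at D24 and 0.876 CPM in cluster 5 at D26. GnRH-GABA-like cluster 12, with 277 cells of D26, had ETV1 at 24.7 CPM and DUSP6 at 18.6 CPM, and 84.9% of its cells were called doublets. SPRY1 was at 45.4 CPM in cluster 9 and 26.7 in cluster 5, so its order between these classes turned from D24 to D26. At D26 SPRED1 was at 12.3 CPM in both cluster 0 and cluster 5. DUSP6 had the opposite order, with 25.4 and 29.3 CPM in the GnRH-GABA-like clusters 9 and 5 against 6.30 and 9.17 CPM in the Glut-like clusters 1 and 0 of the same days. The same GnRH-GABA-like clusters held FGF19 and FGF3, at 114 and 66.0 CPM in cluster 9 and 87.2 and 105 CPM in cluster 5, which were 0.262 CPM or less in cluster 1 at D24 and cluster 0 at D26. Cluster 15, also Glut-like by markers but led by the stress genes DDIT3 and ATF3, had 3.12 CPM of FGF19 and 7.80 CPM of FGF3 at D26. At both days ETV1 was thus higher in these Glut-like clusters and DUSP6 in the GnRH-GABA-like ones.

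**Figure D4:**
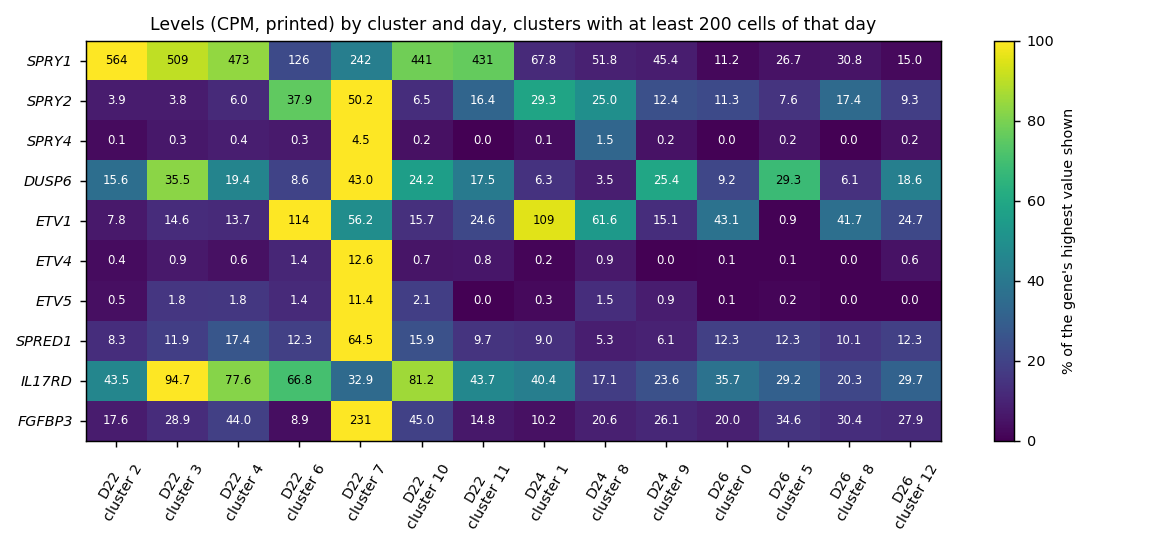
Rows are the 10 genes and columns the clusters with at least 200 cells of a day. Each cell prints the level in CPM, and its color gives the percentage of the row's highest value. Cluster 7 of D22 is the brightest column for SPRY2, SPRY4, DUSP6, ETV4, ETV5, SPRED1 and FGFBP3, while SPRY1 is brightest in clusters 2 and 3.

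Before D22, the one neuronal group was cluster 8 of the D0 to D10 cells, led by STMN2, NEFM and SST, with 61 cells of D10_XAV939 and 17 of D10_dSMADi. In its D10_XAV939 cells 8 of the 10 genes had a lower level than in the other cells of that library, as did 57.7% of 13551 genes with at least 1 CPM in that library. FGFBP3 was at 14.2 CPM (8.76 to 21.6) against 75.7 CPM in the other cells, SPRED1 at 21.6 CPM against 54.7, and SPRY1 at 60.7 CPM against 149. ETV1 at 90.3 CPM (75.7 to 107) against 53.8 and IL17RD at 60.7 CPM (48.8 to 74.6) against 40.6 were higher. These values rest on 5 to 134 UMIs per gene, and 7.69% of the cluster's cells were called doublets. Counted among the 8, SPRY4 at 6.07 CPM (2.77 to 11.5) against 7.17 and DUSP6 at 8.76 CPM (4.67 to 15.0) against 8.82 could not be told apart from the other cells at this depth.

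Cell by cell within a library the genes were only loosely related. At D0 the Pearson correlation of SPRY4 and DUSP6 over 1008 cells was 0.345, and that of SPRY2 and DUSP6 was 0.161 to 0.243 in the 5 libraries of D0 to D10. SPRY4 at D0 had a similar correlation of 0.339 with MKI67. The cells of a library share its depth and free RNA, so these are descriptions only. Across the 8 libraries the gene nearest to each, by Pearson correlation of log2(CPM + 1) over 10711 other genes, was HES1 for ETV5 with 0.992, BNC2 for SPRY4 with 0.987, PARP14 for DUSP6 with 0.970, EIF4EBP2 for FGFBP3 with 0.978, CDK14 for SPRY2 with 0.919 and CADPS2 for IL17RD with 0.891. For the other genes it was AC015813.1 for SPRED1 with 0.998, KRI1 for ETV4 with 0.993, FGF14-AS2 for SPRY1 with 0.964 and WDYHV1 for ETV1 with 0.872. Such values are easily reached over 8 libraries in 2 sets: 1314 genes were above 0.9 with ETV5, 757 with ETV4, 14 with SPRY1 and none with ETV1 or IL17RD.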

How the data were processed

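Single-cell RNA-seq of 8 libraries was analyzed. The authors aligned reads to GRCh38 and deposited UMI counts per gene and barcode, without normalization. The file headers name Cell Ranger 3.1.0 for D22 to D26 and 6.1.2 for D0 to D10, and the submitters' processing notes name 3.1. The annotation release is not given in the sources used here. The tag rows were left out of all totals. Each barcode of a tagged file was led by the tag that the labels give for that condition.

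Cells were kept by the study's stated limits. For D5_dSMADi, D5_XAV939, D10_dSMADi and D10_XAV939 these kept 2419, 2815, 2416 and 2168 cells. The study reports 2480, 2919, 2778 and 2638 cells analyzed there, which equal all deposited barcodes. For D0 the printed complexity limit, above 0.85, left 1 cell, and below 0.85 it left 1008, which was used. Doublets were scored with Scrublet in scanpy 1.11.5, called at 0.25, and kept in the main values. Cells were clustered on 2000 variable genes without the listed genes, 30 principal components, 20 neighbors and the Leiden algorithm at resolution 0.3 (D0 to D10) or 0.5 (D22 to D26). Clusters were named from marker scores, with at least 3 markers detected. Counts were summed per library and given as CPM. The call rule was 10 CPM in one library and 2-fold. TMM factors from edgeR 4.0.16 were an alternative. With 1 library per condition there was no test.

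The 10 genes, the lists and the markers were chosen with earlier results of these data known. Named list genes are at most 4 per list and comparison, past 10 CPM and 2-fold, largest first. ATF3, EGR1, MYC, IER2, DUSP4, SPRED2, FGF2, FGF8, FGFR1, FGFRL1, LEF1 and ZNRF3, which are named for a value under 2-fold, were chosen after their values were seen. A further gene list is not reported here. The ratio was also computed on simulated data. There, all of 200 changed genes were called at D5 (7923 genes) and at D10 (8476 genes). Of the intervals, 95.1% and 95.2% held the simulated ratio. The spread between cultures is unknown, so how the calls and intervals hold against that spread was not tested.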

Additional observations from a re-analysis of the deposited data

Results flagged for a closer look

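DUSP6 and SPRED1 stood on opposite sides with XAV939 at D5 and D10. For DUSP6 the log2 ratio of XAV939 over dSMADi was 1.17 at D5 and -1.05 at D10. For SPRED1 it was 0.10 at D5 and -0.15 at D10. The difference between the days was not tested, since each condition is 1 library, and the sign of all 4 values was the same under each of the 8 alternatives run, with a range of 1.12 to 1.60 and -1.28 to -0.96 for DUSP6. The floor of 1 CPM, counted among the 8, moves no ratio.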

How the results depend on the processing

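Of 730 log2 ratios listed over all comparisons and alternatives, 90 came from the floor of 1 CPM, which moves no ratio, so their sign was fixed. Of the 730, 724 kept their sign, and no ratio past 2-fold turned. The exceptions were SPRED1 for D10 over D5 with dSMADi (TMM scaling, and the total without the 50 top genes), SPRY2 for that comparison (mean of per-cell CPM) and for D26 over D22 (doublets removed), and SPRY2 and SPRED1 for D26 over D22 without cluster 7, the setting added after seeing the data. The number of genes past 2-fold stayed within 1.5 times for XAV939 over dSMADi at both days, 4 to 5 at D5 and 2 to 4 at D10, where DUSP6 was under 2-fold with no limits on cells and with stricter limits. It moved for D10 over D5 with dSMADi, from 1 to 0 with no limits on cells, stricter limits, TMM scaling and the total without the 50 top genes, and with XAV939 from 2 to 1 with TMM scaling, with that total and in cells without MKI67 and TOP2A UMIs. For D26 over D22 it moved from 1 to 4 with TMM scaling and to 3 with the floor at 1 CPM. TMM scaling moved the median log2 ratio of all genes from 0.183 to -0.070 for D10 over D5 with dSMADi, from 0.155 to -0.037 with XAV939, from -0.120 to 0.003 for D5_dSMADi over D0, from 0.342 to 0.070 for D26 over D24 and from 0.237 to 0.008 for D26 over D22, which is the scaling's own construction. The 7 genes highest in cluster 7 at D22 were 7 under every alternative, and the 8 genes lower in the STMN2-high cluster were 7 or 8. The comparison with D0 in cells without MKI67 and TOP2A UMIs was not run, since 1 such cell was left at D0. No paired analysis was possible because each condition is 1 library.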
